A study of Mus musculus with 464 samples.

Results

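The retinoic acid receptor genes Rara, Rarb and Rarg and the retinoid X receptor genes Rxra, Rxrb and Rxrg were described in mouse embryonic stem cells differentiated with retinoic acid. They are 6 of the 21973 genes in the expression table. They were chosen by name, not by a cut on measured values, but with earlier results of these data known. All 6 were found in the table, and each was detected, at 1 TPM or more, in at least 10 cells. TPM is a share of a cell's transcripts corrected for gene length, so levels can be ordered between genes.

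The study coupled single-cell expression to single-cell chromatin data for clustering, and the chromatin data were not analysed here. Each sample is a single cell of the mouse embryonic stem cell line R1, which was kept in medium with Knockout Serum Replacement at 15% and the cytokine LIF at 1000 U/ml. Embryoid bodies formed over 48 hours by the hanging-drop method and were then exposed for 4 days to retinoic acid, at a dose labelled as 0.5 mM (a unit that could not be checked against another source), on an ultra-low attachment plate with medium renewed each day. Capture of single cells was on the Fluidigm C1, and full-length cDNA was made with SMART-Seq V4, which adds no molecular identifiers. All cells carry the same label, with no untreated group and no separate cultures named, so they stand for 1 sample. No p-value or standard error can be given, and the 95% intervals below cover counting error only.

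Retinoic acid, a vitamin A derivative, binds retinoic acid receptors (RAR) in the nucleus. An RAR pairs with a retinoid X receptor (RXR), and the pair sits on repeated DNA motifs near its target genes, where it holds corepressors without ligand and recruits coactivators with it. Retinoid X receptors also pair with other nuclear receptors, such as thyroid hormone and lipid-sensing receptors. In embryoid bodies retinoic acid is widely used to obtain neural progenitors and neurons, and primitive endoderm is another known product.

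Rarb is known as a target of its own pathway, through such a repeat beside the start of its beta2 transcript. RefSeq promoter windows, from 250 bases before to 50 after each transcript start on assembly GRCm38.p6, were searched on both strands for direct repeats of AGTTCA or GGTTCA, or of AGGTCA or GGGTCA, in any combination. With a spacing of 5 bases (DR5), the repeat occurred in 32 of 32851 windows, or 0.0974%, and in 31 of 27025 genes. All 6 receptors matched a window, and Rarb was the 1 receptor gene with a DR5. No receptor window held a repeat spaced by 2 bases (in 0.268% of all windows) or by 1 base (0.222%). Rarb had 1 window in the table, Rara 4 and the other receptors 2 each. Among the pathway genes described further on that had a window, Cyp26a1, whose enzyme breaks down retinoic acid, also had a DR5, read on the strand opposite to the gene. The 2 stretches are shown because they carry the motif these receptors bind. Each is the 120 bases that end just before the transcript start, 5′ to 3′ on the gene's strand, with the repeated 6-base units in capitals. The Rarb stretch lies at chr14:16575477-16575596 on the minus strand, with the repeat at -53 to -37 from the start. The Cyp26a1 stretch lies at chr19:37697688-37697807 on the plus strand, with the repeat at -32 to -16. A match of letters is a description and does not show binding.
Rarb: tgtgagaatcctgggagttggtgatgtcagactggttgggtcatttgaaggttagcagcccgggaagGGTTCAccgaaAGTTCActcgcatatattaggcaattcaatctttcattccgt
Cyp26a1: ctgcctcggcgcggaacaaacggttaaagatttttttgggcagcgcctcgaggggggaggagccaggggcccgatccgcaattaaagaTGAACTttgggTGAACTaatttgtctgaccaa

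On GRCm38.p6 the genes lie on 6 chromosomes. Rara spans chr11:98927800-98974942, Rarb chr14:16430839-17082331 and Rarg chr15:102234938-102257522. Rxra spans chr2:27676445-27763319, Rxrb chr17:34031812-34038403 and Rxrg chr1:167598362-167639623.

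Columns with fewer than 2000 genes above 0, or with over 20% of their level on mitochondrially encoded genes, were left out. This removed 6 columns, and the others are called cells here. A cell had a median of 6742.5 genes above 0, with a range of 2059 to 10256. Sequencing depth is unknown. By name, the columns fall into 2 sets. There were 55 near-copy pairs, each with 1 column per set and correlated at 0.95 to 0.99, which were handled as repeats of the same cell. Dropping 1 column of each pair leaves what are called distinct cells, whose values are given beside the main ones. Intervals over all cells count both columns of a pair, which makes them somewhat too narrow. Cells were placed in marker states by how many of 10 endoderm, 10 neural progenitor and 10 neuron markers reached 5 TPM. The endoderm state held 67 cells (14.6%), the state over the endoderm and a neural cut held 45 (9.83%), the neuron state 29.5% and the progenitor state 39.7%, and 29 cells (6.33%) passed no cut. These states are ranges of a marker count and not cell types. Within 1 marker of the cut lay 2.62% of cells for endoderm, 14.2% for progenitor and 11.1% for neuron markers. Endoderm-state cells had a median of 8 endoderm markers and 0 of the other 2 kinds, whereas neuron-state cells had a median of 9 neuron and 5 progenitor markers. None of 5 pluripotency and none of 5 early mesoderm markers reached detection in 10% of the cells of any state. Of 5 germ cell genes, 3 did so in endoderm-state cells and 1 in progenitor-state cells, and 4 of 5 neural crest genes did so in neuron-state cells.

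Over all cells, the retinoic acid receptor transcripts were Rarb and Rara, with Rarb the more abundant. Rarb, whose protein is the beta receptor, was detected in 91.05% of cells (95% interval 88.1% to 93.5%), and in 90.3% of distinct cells. Its level ran from 0 to 313.8 TPM, with a median of 48.9 and a mean of 59.5 ± 50.02 (SD over cells). Rara, which encodes the alpha receptor, was detected in 81.2% of cells (77.3% to 84.7%), and in 81.4% of distinct cells. Its level ran from 0 to 153.2 TPM, with a median of 14.4 and a mean of 20.98 ± 22.9. The mean level of Rarb was 2.84-fold that of Rara, and Rarb was the higher of both in 81.2% of cells. The spread over cells was wide, and the middle ranges overlapped. The quartiles were 24.5 and 82.1 TPM for Rarb and 3.35 and 30.4 TPM for Rara.

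The gamma receptor gene, Rarg, was detected in 16 cells, or 3.49% (2.01% to 5.61%), and in 3.47% of distinct cells. Its mean level was 0.273 TPM, its median was 0, and its highest value was 21.5 TPM. A single cell held 17.2% of its summed level. Rarb held 73.7% of the summed level of the 3 RAR genes, Rara 25.98% and Rarg 0.338%. Among the cells with any RAR gene detected, Rarb was the highest in 84.7%.

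The retinoid X receptor transcripts were lower and were found in fewer cells. Rxrb, which encodes the beta form, was detected in 34.3% of cells (29.9% to 38.8%), with a median of 0, a highest value of 58.7 TPM and a mean of 4.36 ± 9.31 TPM. Rxra, the alpha form, was detected in 24.7% (20.8% to 28.9%), with a median of 0, a highest value of 46.2 TPM and a mean of 2.23 ± 6.42 TPM. Rxrg, the gamma form, was detected in 14 cells, or 3.06% (1.68% to 5.08%), with a mean of 0.850 TPM. Over distinct cells the shares were 34.5%, 24.8% and 3.23%. Where they were detected, the median level was 8.78 TPM for Rxrb, 5.13 TPM for Rxra and 27.3 TPM for Rxrg, so Rxrg was found in few cells but at higher levels there. Together, the RXR genes had a mean of 7.45 TPM per cell, against 80.8 TPM for the RAR genes.

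By mean level among all 21973 genes, Rarb ranked 2334, Rara 4563, Rxrb 8711, Rxra 10293, Rxrg 12119 and Rarg 13854. Each step between neighbours in this order was smaller than the SD over cells of the higher gene. Rxra and Rxrb differed in mean by 1.96-fold, and the intervals of their detected shares did not overlap, also over distinct cells. Both shares come from the same cells, and the intervals take no account of this pairing. The shares of Rarg and Rxrg had overlapping intervals.

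**Figure D1:**
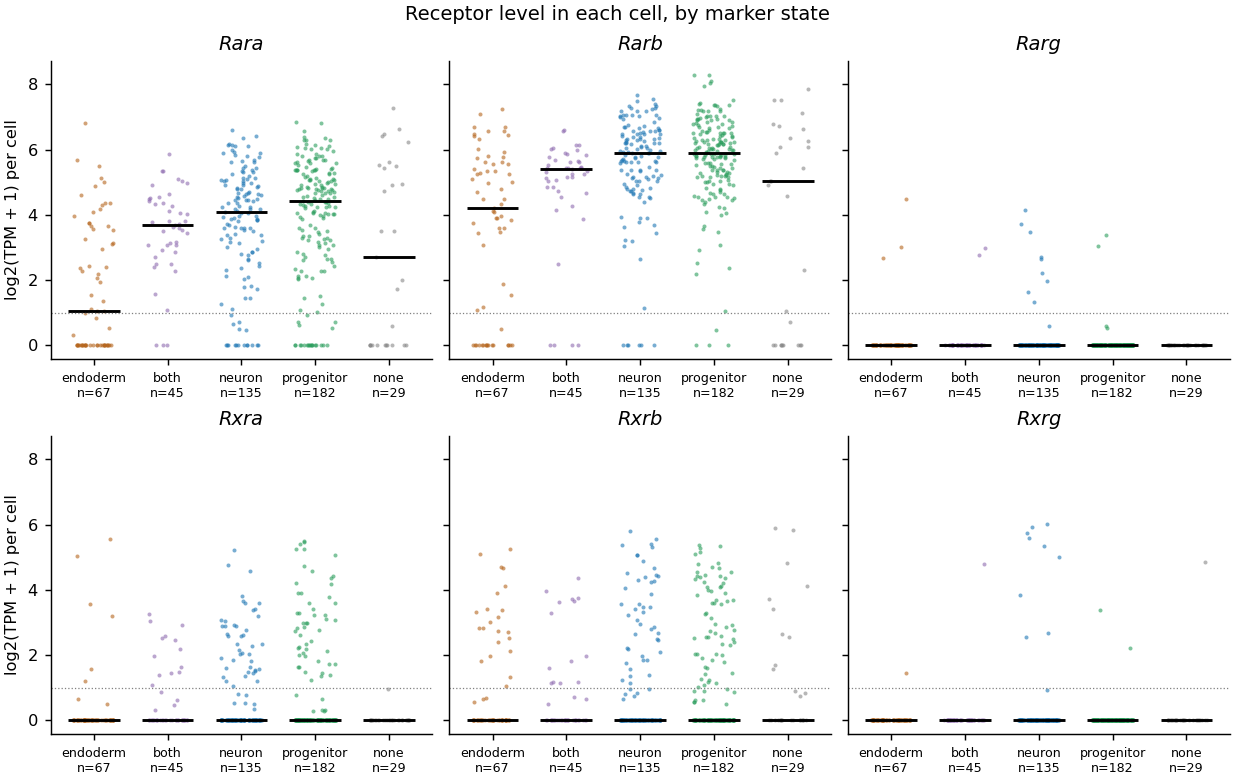
Level of each receptor gene as log2(TPM + 1), with 1 point per cell, in 5 marker states. Bars are medians and the dotted line is 1 TPM. Rarb and Rara lie mostly above the line, Rxra and Rxrb are at 0 in most cells, and Rarg and Rxrg are above it in 16 and 14 cells.

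The near-copy columns gave the only measure of technical error. They were picked for their high correlation, and the labels do not say which steps they share, so they do not measure loss at capture or cDNA synthesis. Rarb was detected in both columns of 53 pairs, in 1 column of 1 pair and in neither of 1. For Rara the counts were 42, 4 and 9 pairs. Within pairs the SD of log2(TPM + 1) was 0.32 for Rarb and 0.50 for Rara, against 2.04 and 1.98 over distinct cells. Rxrb was detected in both columns of 17 pairs, in 1 of 6 and in neither of 32. Rxra was detected in both columns of 12 pairs, in 1 of 3 and in neither of 40. Within-pair SDs were 0.46 for Rxrb and 0.40 for Rxra, against 1.69 and 1.33 over cells. In pairs with the gene in both columns, the median ratio of the larger to the smaller level was 1.15 for Rarb, 1.20 for Rara, 1.52 for Rxra and 1.59 for Rxrb. The 2 pairs with Rarg and the 1 pair with Rxrg had the gene in both columns.

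**Figure D2:**
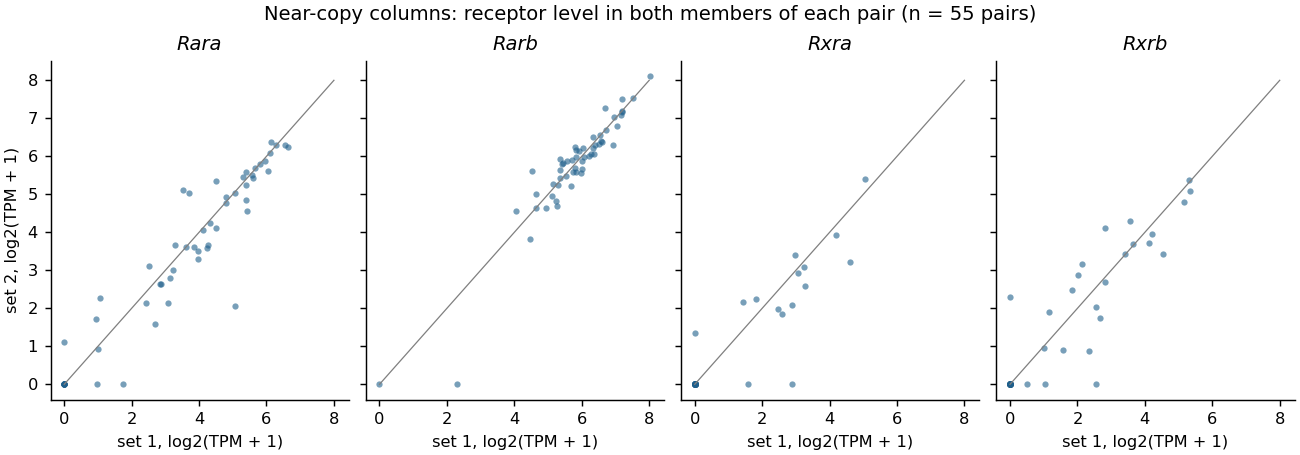
Receptor level in the set 2 column against the set 1 column of the 55 near-copy pairs, as log2(TPM + 1), for Rara, Rarb, Rxra and Rxrb. Each point is 1 pair and the line marks equal values. Rarb pairs lie closest to the line, and 6 Rxrb and 3 Rxra pairs have detection in 1 column only.

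Detection moved with the number of genes found in a cell. With cells ranked into 3 equal parts by gene number, whose medians were 5479, 6742.5 and 8080 genes, Rara was detected in 66.7%, 78.9% and 98% of cells. Rarb was detected in 79.1%, 96.1% and 98%, Rxra in 15.7%, 24.3% and 34%, and Rxrb in 27.5%, 31.6% and 43.8%. Mean levels did not follow this order: Rara had 20.5, 22.7 and 19.8 TPM, and Rarb 63.8, 61.3 and 53.4 TPM. Within the progenitor state alone, Rara was detected in 80.3%, 83.3% and 100% of cells from low to high gene number. In the same order, Rarb was detected in 93.4%, 100% and 100% of them, Rxra in 26.2%, 25% and 32.8%, and Rxrb in 31.1%, 30% and 47.5%. The mean of Rarb fell there, with 84.4, 69.3 and 59.6 TPM. A cell listed at 0 may thus hold the transcript, and the part of gene number in the shares below was not tested.

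Because the receptors act in pairs, detection was also counted jointly. At least 1 RAR gene was detected in 95.9% of cells and at least 1 RXR gene in 50.7%. Both families were detected in 49.8% of cells (45.1% to 54.5%), and in 49.9% of distinct cells. An RAR gene without any RXR gene was found in 46.1% of cells, and the reverse in 4 cells (0.873%). In 15 cells (3.28%) none of the 6 was detected. Rara and Rarb were detected together in 76.6% of cells, Rarb without Rara in 14.4% and Rara without Rarb in 4.59%. Rxra and Rxrb were detected together in 44 cells, or 9.61%. The most frequent combinations were 2 RAR genes with 0 RXR genes, in 35.4% of cells, and 2 RAR genes with 1 RXR gene, in 30.3%. The share with both families was 39.2%, 48.7% and 61.4% in the 3 parts ranked by gene number, in that order. Within the progenitor state it was 52.5%, 48.3% and 59%, which does not follow gene number. Over all cells the joint share was 33.2% with detection set at 5 TPM and 11.1% with detection as a place among a cell's 4000 highest genes.

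**Figure D3:**
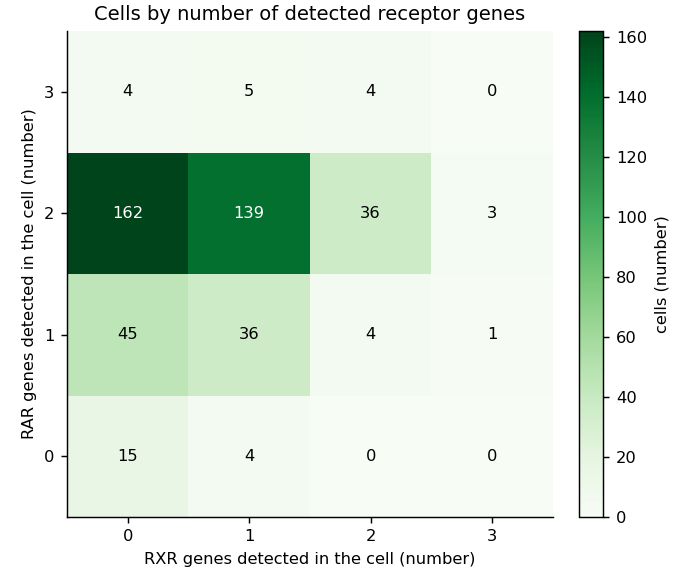
Number of cells by how many of the 3 RAR genes (vertical) and of the 3 RXR genes (horizontal) were detected at 1 TPM or more. Numbers in the squares count cells, and the fullest squares are 2 RAR genes with 0 RXR genes (35.4% of cells) and with 1 (30.3%).

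Endoderm-state cells had lower Rara and Rarb than progenitor-state cells. Rara was detected in 52.2% of 67 endoderm-state cells (39.7% to 64.6%) and in 87.9% of progenitor-state cells (82.3% to 92.3%). Its level had a lowest value of 0, a median of 1.09 and a highest value of 110.5 TPM in the endoderm state, against 0, 20.3 and 112.9 TPM in the progenitor state. The mean was 8.38 against 25.4 TPM, a ratio of 0.33, and 0.34 over distinct cells. Both ranges reach from 0 to above 110 TPM and overlap, while the detected shares have intervals that do not.

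Rarb was detected in 74.6% of endoderm-state cells (62.5% to 84.5%) and in 97.8% of progenitor-state cells (94.5% to 99.4%). Its lowest, median and highest levels were 0, 17.6 and 151.5 TPM against 0, 58.3 and 313.8 TPM. The mean was 31.4 against 71.1 TPM, a ratio of 0.44, also over distinct cells. In cells with 5000 to 8000 genes, a restriction chosen after seeing the data, the ratios were 0.27 for Rara and 0.39 for Rarb. Rarb was still the highest RAR gene in 75.9% of endoderm-state cells with any, against 85.6% in the progenitor state, with intervals that overlap.

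Rxra was detected in 8.96% of endoderm-state cells (3.36% to 18.5%) against 28% of progenitor-state cells (21.6% to 35.1%), with intervals that do not overlap, also over distinct cells. Its mean was 1.51 against 3.20 TPM, a ratio of 0.47. Over distinct cells the ratio was 0.53, and it was 0.63 in column set 1 and 0.34 in set 2. It was 0.28 without the highest cell of each state and 0.68 on the mean of log2(TPM + 1), so the call at 2-fold depends on the setting. Rxrb was detected in 32.8% against 36.3%, with means of 3.56 and 4.41 TPM, a ratio of 0.81. The ratio for Rxrb was 1.22 in column set 1 and 0.40 in set 2. Rxrg was detected in 1 endoderm-state and 2 progenitor-state cells, and Rarg in 3 and 2. The ratios of their means, 0.36 and 5.26, rest on those cells. At least 1 gene of each family was detected in 34.3% of endoderm-state cells (23.2% to 46.9%) and in 53.3% of progenitor-state cells (45.8% to 60.7%), with intervals that just overlap. Median gene numbers were 6122 and 6759, and the median summed level of the 5 germ cell genes was 75.7 and 0 TPM. Their part in these ratios was not tested beyond the cells of similar gene number above.

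Set against all genes, 1 of the 6 receptors, Rarg, was at least 2-fold higher in the endoderm state, where 20.7% of the 13756 genes detected in at least 10 cells were. Lower by at least 2-fold were 4 receptors, where 29.5% of all genes were. The median log2 ratio was -1.13 over the receptors and -0.27 over all genes. On the mean of log2(TPM + 1) in place of mean TPM, 2 receptors were lower, Rara and Rarb, and 0 were higher. The shares of 20.7% and 29.5% hold for mean TPM only, so these log-scale counts cannot be set against them.

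**Figure D4:**
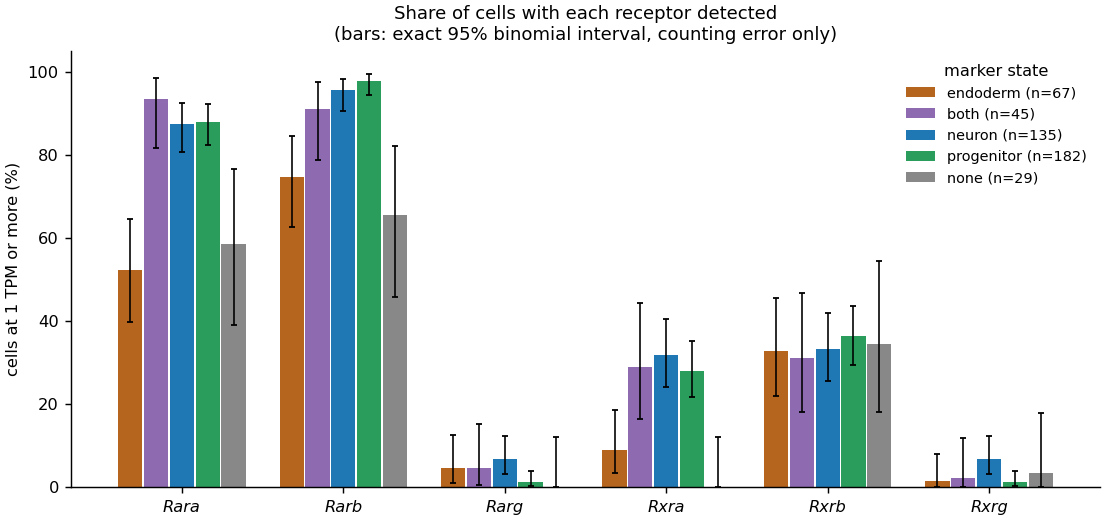
Percent of cells with each receptor gene at 1 TPM or more, by marker state, with exact 95% binomial intervals that cover counting error only. For Rara and Rarb the endoderm bars (52.2% and 74.6%) lie below the progenitor bars (87.9% and 97.8%), and for Rxrb all 5 bars lie between 31.1% and 36.3%.

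The means of the 4 more widely detected receptors lay within 2-fold of each other in neuron-state and progenitor-state cells. Rara was detected in 87.4% and 87.9%, with means of 21.96 and 25.4 TPM. Rarb was detected in 95.6% and 97.8%, with means of 65.6 and 71.1 TPM and medians of 58.2 and 58.3 TPM. Rxra was detected in 31.9% and 28%, with means of 2.10 and 3.20 TPM. Rxrb was detected in 33.3% and 36.3%, with means of 4.85 and 4.41 TPM. The ratios of means were 0.86 for Rara, 0.92 for Rarb, 0.65 for Rxra and 1.10 for Rxrb. All 4 pairs of detected shares had overlapping intervals. Both families were detected in 54.1% of neuron-state cells, against 53.3%.

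Rarg and Rxrg were each detected in 9 neuron-state cells (6.67%, 3.09% to 12.3%) and in 2 progenitor-state cells (1.10%, 0.133% to 3.91%). These intervals overlap. The mean of Rarg was 0.449 against 0.0965 TPM, and that of Rxrg 2.37 against 0.0718 TPM. At least 2-fold higher in the neuron state were therefore 2 of 6 receptors, Rarg at 4.65-fold and Rxrg at 33-fold, where 16% of all genes were. Lower were 0 of 6, where 7.86% of all genes were. The median log2 ratio was 0.01 over the receptors and 0.05 over all genes. The ratio for Rarg was 70.1 in column set 1 and 1.34 in set 2, so it depends on the set. In set 2, Rxrg was listed at 0 in all progenitor-state cells. On the mean of log2(TPM + 1), the ratios were 1.10 for Rarg and 1.22 for Rxrg, below the 2-fold bound. Both comparisons use the same progenitor-state cells.

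Levels of Rxrg in the cells that had it ran from 1.74 to 63.97 TPM. In the neuron state the 9 values were 63.97, 60.45, 53.09, 46.73, 39.85, 31.36, 13.31, 5.46 and 4.89 TPM, of which 13.31 and 5.46 come from 1 near-copy pair. The other 5 cells were a cell with no state at 27.8 TPM, a cell over both cuts at 26.8 TPM, progenitor-state cells at 9.43 and 3.64 TPM and an endoderm-state cell at 1.74 TPM. The 6 highest cells were all in the neuron state, 4 from column set 1 and 2 from set 2. Neuron-state cells were also split at the progenitor cut, a division chosen after seeing the data. Rxrg was detected in 7 of the 55 cells under the cut (12.7%, 5.27% to 24.5%) and in 2 of the 80 over it (2.50%, 0.304% to 8.74%). Those 2 are the near-copy pair. Over distinct cells the counts were 7 of 53 (13.2%, 5.48% to 25.3%) and 1 of 72 (1.39%, 0.0352% to 7.50%). These intervals overlap, and median gene numbers were 6137 and 7569. The other 5 receptors had lower shares under the cut than over it: Rxra 21.8% and 38.8%, Rxrb 21.8% and 41.3%, Rara 81.8% and 91.3%, Rarb 90.9% and 98.8%, and Rarg 3.64% and 8.75%. The intervals overlapped for each of them.

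Rarg was found at lower levels, with a highest value of 21.5 TPM in an endoderm-state cell and values of 1.52 to 16.7 TPM in the neuron state. That highest cell had 0 TPM of the other 5 receptors. Of the 16 cells with Rarg, 13 also had Rara and Rarb, which were detected together in 76.6% of all cells. No cell had both Rarg and Rxrg. They were detected in only 3.49% and 3.06% of all cells, too few for the lack of overlap to be a finding.

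The remaining states lay between or apart. Cells over both the endoderm and a neural cut had Rara in 93.3% and Rarb in 91.1%, with means of 14.9 and 39.7 TPM, and a median of 8026 genes. Their means thus lay between those of the endoderm and progenitor states, while the interval for Rara detection (81.7% to 98.6%) overlaps that of the progenitor state. Doublets were not called, so the part of 2 cells captured together in this state was not tested. The 29 cells with no state had a median of 4483 genes, Rara in 58.6% and Rarb in 65.5%, and means of 27.4 and 53.8 TPM. None of these 29 had Rxra at 1 TPM or more, which allows a share of up to 11.9% by the exact interval.

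Across the distinct cells, the genes whose log2(TPM + 1) was most like each receptor's were sought among the 11129 genes detected in at least 10% of them. The values are descriptions, and cells share a library preparation and a gene-number gradient. Rarb was most like Ctbp1 (r = 0.47), a transcriptional corepressor, Fez1 (0.45), which acts in axon outgrowth, and Hoxa5 (0.43), a Hox gene of positional identity. Rara was most like Hoxa4 (0.39), Hoxa5 (0.38) and Fez1 (0.38). Fez1 had a mean of 9.54 TPM in the endoderm state against 249.3 TPM in the neuron state, and Hoxa5 19.6 against 148.2 TPM. Rxrg was most like Slc10a4 (0.42), a vesicle protein of cholinergic and aminergic neurons, Ppp2r2b (0.40), a phosphatase subunit, and Isl1 (0.38), a homeodomain factor of motor and sensory neurons. Isl1 had a mean of 32.1 TPM in the neuron state and 3.94 TPM in the progenitor state. The Rxrg values rest on its 13 distinct cells. By rank correlation they were only 0.25 for Slc10a4, 0.23 for Ppp2r2b and 0.24 for Isl1. For Rarg, Rxra and Rxrb the closest genes reached only 0.21 (Ttc30a1), 0.23 (Hes5) and 0.21 (Rfng), too weak in sparse data to be a finding. Rara and Rarb themselves correlated at 0.23 over distinct cells and at 0.11 within the progenitor state.

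Genes that act with the receptors were taken from 7 lists with 65 distinct genes, of which 58 were detected in at least 10 cells. Between the endoderm and progenitor states, 12 of the 58 were higher (20.7% of all genes were), 21 lower (29.5% of all genes) and 25 neither, with a median log2 ratio of -0.28, against -0.27 over all genes. Between the neuron and progenitor states, 9 were higher (16% of all genes were), 7 lower (7.86% of all genes) and 42 neither, with a median of 0.22 against 0.05. In both comparisons the count of higher pathway genes was thus near the share over all genes.

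Between the endoderm and progenitor states, the list for uptake and carriage had the median ratio farthest from equal, at -3.77 on the log2 scale. Of 7 tested genes for retinoid uptake and carriage, 2 were higher and 5 lower in the endoderm state than in the progenitor state. Over all genes the shares were 20.7% higher and 29.5% lower. Rbp4, the blood carrier of retinol, had a mean of 2392 against 13.7 TPM, and Stra6, the retinol uptake receptor, 21.8 against 0.438 TPM. Crabp2, which carries retinoic acid to nuclear receptors, had 153.6 against 2160 TPM, and Crabp1, its cytoplasmic relative, 51.1 against 695.9 TPM. Lrat, which esterifies retinol, was detected in 0 of 67 endoderm-state and 8.79% of progenitor-state cells. In the neuron state, Crabp1 was 3.5-fold and Stra6 9.74-fold higher, and Crabp2 was at 0.89 of its progenitor level.

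Of 8 genes for oxidation and reduction, 3 were higher, 1 lower and 4 neither in the endoderm state. Of all genes, 20.7% were higher and 29.5% lower there. Aldh1a1, which makes retinoic acid from retinal, was detected in 7 of 67 endoderm-state cells (10.4%) and in 0 progenitor-state cells. Aldh1a2, which catalyses the same step, was listed at 0 in all endoderm-state cells and was detected in 8.15% of neuron-state cells and 1 progenitor-state cell. By mean TPM, however, 0 of the 8 genes, Aldh1a2 among them, were at least 2-fold higher in the neuron state, where 16% of all genes were. Lower there was 1 of the 8, where 7.86% of all genes were. The retinol dehydrogenase gene Rdh10, named after its values were seen, had 55.2 against 1.62 TPM.

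All 3 genes of the enzymes that degrade retinoic acid were at least 2-fold higher in the endoderm state, where 20.7% of all genes were. Rara and Rarb were lower there. Cyp26a1 was detected in all 67 endoderm-state cells, from 241.5 to 3986 TPM with a median of 1391, and in 84.6% of progenitor-state cells, from 0 to 816.7 TPM with a median of 67.5. The endoderm-state median thus lay above the highest progenitor-state value, although the ranges overlap. The means of 1397 and 115.9 TPM had a ratio of 12.1, and of 13.4 over distinct cells. Cyp26b1 and Cyp26c1 had ratios of 2.19 and 2.01, just above the 2-fold bound. In the neuron state, Cyp26a1 had a mean of 54.9 TPM, a ratio of 0.47 to the progenitor state, but 0.52 over distinct cells, and the ratio for Cyp26c1 was 0.34. Cyp26a1 and Rarb, the 2 genes whose promoters are printed above, therefore differed in opposite directions between the endoderm and progenitor states.

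Corepressor and coactivator genes differed less. Of all genes, 20.7% were higher and 29.5% lower in the endoderm state. In the neuron state, 16% of all genes were higher and 7.86% lower. None of 9 corepressor genes passed 2-fold in either comparison. Ncor1, the nuclear receptor corepressor, was detected in 98.9% of cells with a mean of 122.1 TPM. Of 9 coactivator genes, 1 was lower in the endoderm state, the arginine methyltransferase gene Carm1 at a ratio of 0.44, and 1 was higher in the neuron state, the acetyltransferase gene Kat2b at 2.04. Of 8 tested genes for other partners of RXR, 1 was higher and 4 were lower in the endoderm state. In the neuron state 1 was higher, Thra, the alpha thyroid hormone receptor, at 2.13-fold, and 3 were lower, which were Ppara, Thrb and Nr4a1. Lower there were thus 3 of 8 partner genes, where 7.86% of all genes were. Nr1h2, the oxysterol receptor LXR beta, was the most abundant partner with a mean of 22.5 TPM, above Rxra and Rxrb.

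Of 18 tested genes known as targets of retinoic acid signalling, 4 were higher and 12 lower in the endoderm state, where 20.7% and 29.5% of all genes were. Among the higher were Cyp26a1, Tgm2, which encodes a transglutaminase, with a mean of 7.05 against 0.0855 TPM, and Stra8, which encodes a meiosis factor, at 4.09-fold. The 12 lower targets include Crabp2 and Hoxb1, and 6 further Hox and Meis genes. In the neuron state 5 targets were higher, where 16% of all genes were, among them Hoxb1 with 8.69 against 1.51 TPM. Lower was 1 target, Cyp26a1, where 7.86% of all genes were, and 12 were neither. The call for Cyp26a1 was lost over distinct cells.

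**Figure D5:**
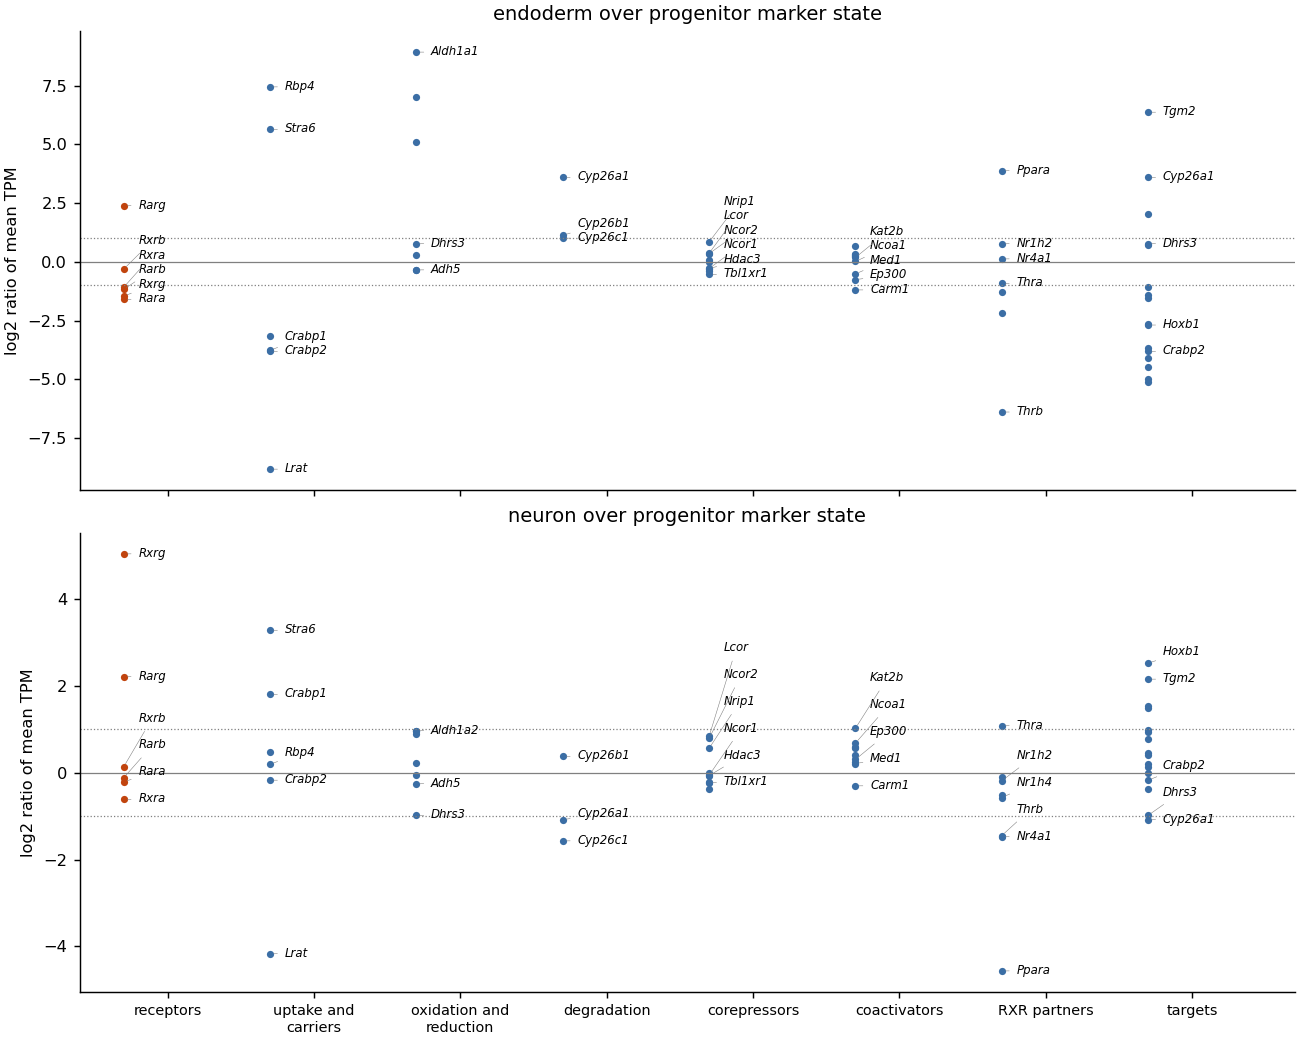
Log2 ratio of mean TPM between marker states for the 6 receptors (orange) and tested genes of 7 retinoid pathway lists (blue), endoderm over progenitor above and neuron over progenitor below. Dotted lines mark 2-fold, only the receptors and genes named by a set rule carry names, and some tested genes, among them those with a mean of 0 in the first state, are not drawn. Corepressors lie within the dotted lines in both panels, and Cyp26a1 lies above them for endoderm and just below them for neuron.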

How the data were processed

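The authors deposited 1 table of 21973 genes by 464 columns with no stated unit. The submitters' processing notes name STAR, RSEM and the build mm10. Tool versions and the gene annotation: not given in the sources used here. Values as deposited were taken as TPM, since they are decimals whose sum per cell was 54.2% to 95.1% of the TPM total. The header line runs on into the first gene's row and was split there. Column names match no single sample, which has no effect within 1 group. The cell filter kept 458 columns, 224 and 234 per set, of which 403 are distinct cells. The states held 67 (endoderm), 45 (both), 135 (neuron), 182 (progenitor) and 29 (none) cells. TPM keeps no depth, so gene number per cell stands in for it, and doublet callers, which need counts, were not run.

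Detection was set at 1 TPM, and shares have exact Clopper-Pearson 95% intervals. Near copies were column pairs whose log2(TPM + 1) correlated above 0.93. The endoderm state needed 5 of 10 endoderm markers at 5 TPM, fewer than 5 progenitor and fewer than 6 neuron markers. Cells under the endoderm cut were neuron with 6 of 10 neuron markers and otherwise progenitor with 5 of 10. Ratios are of mean TPM over cells, computed for all genes detected in at least 10 cells, and called at 2-fold. The code for the fold calls was tested on simulated data for widely detected genes, drawn with no cells lacking the gene. That test does not cover sparse genes such as Rarg, Rxrg, Rxra and Rxrb. The genes named were the receptors, the 3 genes most correlated with each, Cyp26a1 and Crabp2, and from each pathway list the 2 highest in mean and the 2 with the largest ratio in each comparison. Rdh10, Stra8 and genes given only as members of a count were named after their values were seen. Some genes that this rule names are counted in their lists but are not reported here by name. The receptors and all lists were chosen with earlier results of these data known. The expression table was read with Python 3.11.15, pandas 2.3.3, numpy 2.4.6 and scipy 1.17.1. Promoter sequences are from RefSeq on GRCm38.p6. The alternatives tried were the detection limit, the marker cut, the column sets, distinct cells, the scale of the mean, the gene filter and gene number.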

Additional observations from a re-analysis of the deposited data

How the results depend on the processing

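Rara and Rarb kept their lower means in the endoderm state under all 15 settings, with ratios of 0.105 to 0.355 and 0.139 to 0.463. The call for Rxra in the endoderm state was lost under 6 settings: distinct cells (0.53), column set 1 (0.63), the mean of log2(TPM + 1) (0.68), markers at 1 TPM (0.54) or 10 TPM (0.51), and cells with 5000 to 8000 genes (0.54). The detection limit moved the joint RAR and RXR share most: it was 55.5% for any value above 0, 33.2% at 5 TPM and 11.1% among each cell's 4000 highest genes, where Rarb was the highest RAR gene in 88.1%. On the mean of log2(TPM + 1), 0 receptors were higher and 2 lower in the endoderm state, 0 were higher in the neuron state, 13 pathway genes were lower in the endoderm state, and 4 were higher and 2 lower in the neuron state. On log2(TPM + 0.1), 0 receptors were higher in either state and 2 pathway genes were lower in the neuron state. In column set 1 the state over both cuts held 6.70% of cells. In column set 2, 2 receptors were higher in the endoderm state, where 21.6% of all genes were. Of these, Rxrg stood against a progenitor mean of 0. In the neuron state of that set, 1 receptor and 14 pathway genes were higher, where 16.7% of all genes were. With no filter on genes, 12 pathway genes were lower in the neuron state. Cells with no state made up 3.06% with 1 marker fewer, 12.9% with 1 more, 2.84% with markers at 1 TPM and 10.7% at 10 TPM. The neuron state held 25.1% with 1 marker more and 36.2% at 1 TPM, where the progenitor state held 35.2%. Chosen after seeing the data, cells with 5000 to 8000 genes gave 2 receptors higher and 2 lower in the endoderm state. Neuron cells under the progenitor cut gave 14 pathway genes higher and 1 receptor lower, Rxra at 0.42. Apart from column set 2, these counts are given without the share of all genes called under the same setting. They therefore do not tell the receptors or pathway genes from all genes. The cause of the differences between settings was not tested. No paired comparison between groups was possible because all cells form 1 group.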
